A study of Danio rerio with 4 samples.

Results

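Fibroblast growth factor (FGF) genes were followed through a bulk RNA sequencing comparison of 2 sorted populations of zebrafish coronary endothelial cells, which form the inner wall of the heart's own vessels. The set held every row whose symbol begins with fgf and a digit, fgfr, fgfbp, spry or spred, or names dusp4, dusp5, dusp6, etv4 or etv5. This gave 45 of the 20306 genes in the deposited table. Of these, 34 reached a normalized count of 10 in 2 or more of the 4 libraries and were tested, and 11 did not. By function the 45 rows were 15 secreted ligands, 3 intracellular FGF homologous factors, 7 rows of receptors, 2 receptor-like genes, 3 Sprouty genes, 3 Spred genes, 3 phosphatase genes, 3 ETS transcription factor genes and 6 rows that share only letters with the family. No fgfbp row was among them. Every gene of the deposited table reached at least 5 in some library, so family genes with lower values may be absent from it. The table gives 20 of the 45 rows a KEGG pathway, and all 20 are listed under MAPK signalling, which FGF receptors drive.

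Secreted FGFs bind receptor tyrosine kinases together with heparan sulfate, and the bound receptor drives the RAS, MEK and ERK kinases. Active ERK switches on the ETS factor genes etv4 and etv5 and, with them, the pathway's own brakes: Sprouty and Spred proteins act near RAS, and dual specificity phosphatases remove phosphate from ERK. Other receptor tyrosine kinases, among them the receptors of vascular endothelial growth factor, also drive ERK and the same brakes. In the injured zebrafish heart FGF signalling is known for recruiting epicardium-derived cells and for the growth of new coronary vessels.

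The Regenerating group (2 libraries) and the Non-Regenerating group (2 libraries) both came from wild-type ventricles taken 7 days after a freezing injury (cryoinjury). All sorted cells were positive for the -0.8flt1:RFP reporter, which a promoter fragment of the endothelial receptor gene flt1 drives. Regenerating was taken as the cxcr4a:YFP+ gate and Non-Regenerating as the cxcr4a:YFP- gate, from knowledge of this reporter of a chemokine receptor gene, since the labels do not tie the table's headings to a gate. The labels give neither the number of animals pooled nor whether the replicates are different animals, and the spread behind each p-value may therefore be technical only. The cxcr4a transcript read 2285 and 2242 normalized counts in Regenerating, against 585 and 590 in Non-Regenerating. The flt1 transcript read 5496 and 5925 in Regenerating, against 6595 and 6649 in Non-Regenerating.

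Normalized counts summed to 10662434 and 10481747 in Regenerating and to 10761712 and 10564201 in Non-Regenerating, and the reads behind them were estimated at 9741978 to 11583307 per library. A value of 0 allows up to 3 reads, or 2.76 to 3.25 normalized counts depending on the library, for counting error only. All 11 general endothelial markers found were present in every library, at summed levels of 65337 and 69136 in Regenerating, against 69787 and 75515 in Non-Regenerating. Other cell types were present in the same libraries. The 11 heart muscle markers summed to 32648 and 9815 in Regenerating, against 5097 and 2761 in Non-Regenerating, with none at 0. The 8 endocardial markers, of the inner lining of the heart, summed to 7894 and 7340 in Regenerating, against 15545 and 10578 in Non-Regenerating, with none at 0. In bulk samples, fewer cells of a type and less RNA per cell cannot be told apart.

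**Figure D1:**
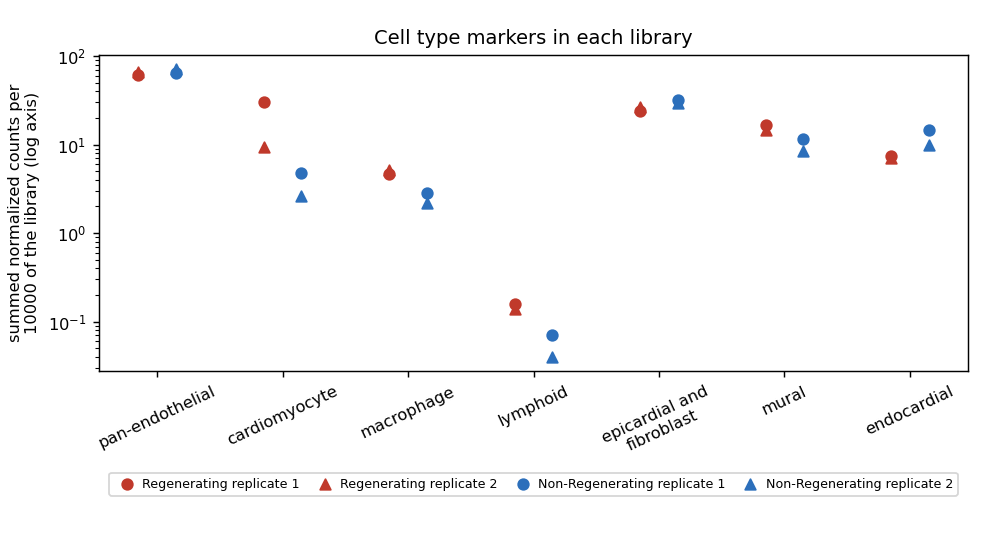
Summed normalized counts of each fixed marker list per 10000 normalized counts of the library (log axis), with 1 point per library and replicates 1 and 2 shown as circles and triangles. Endothelial markers lie between 61.28 and 71.48 in all 4 libraries, while heart muscle markers are at 30.62 and 9.36 in Regenerating, against 4.74 and 2.61 in Non-Regenerating.

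None of the 34 tested members was called at a Benjamini-Hochberg adjusted p under 0.05, where limma called 0.00591% of all 16928 tested genes. At an unadjusted p under 0.05 there were 9 members, 26.5% of those tested, against 12.8% of all tested genes. Of these, 2 were higher in Regenerating (5.88% of members, against 7.62% of all tested genes), namely the ligand genes fgf3 and fgf17. The other 7 were lower (20.6% of members, against 5.19% of all tested genes), namely spry2, spred1, spred2a, dusp6, fgfrl1a, fgf18a and fgf10b, the last of which reached the filter only through the Non-Regenerating libraries. The count of 9 fell to 1 or 3 when the first or the second Regenerating library was left out, and to 2 or 8 when the first or the second Non-Regenerating library was. Regenerating and Non-Regenerating libraries were free of overlap in 14 members, or 41.2%, against 43.2% of all tested genes. Of these, 4 members were higher (11.8%, against 21.8%) and 10 were lower (29.4%, against 21.5%). Replicate 1 was at least 2 times replicate 2, on the value + 1 scale, for 6 members in Regenerating (17.6%, against 9.09% of all tested genes) and for 8 members in Non-Regenerating (23.5%, against 9.69%). The median log2 fold change of the tested members was -0.12, and that of all tested genes was 0.00. With the 6 rows that share only letters left out, the median of the other 28 was -0.26. With 2 libraries a group, an exact permutation test of a single gene cannot go below a two-sided p of 0.333, so folds and p-values come from the limma fit over all genes, on log2(value + 1).

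**Figure D2:**
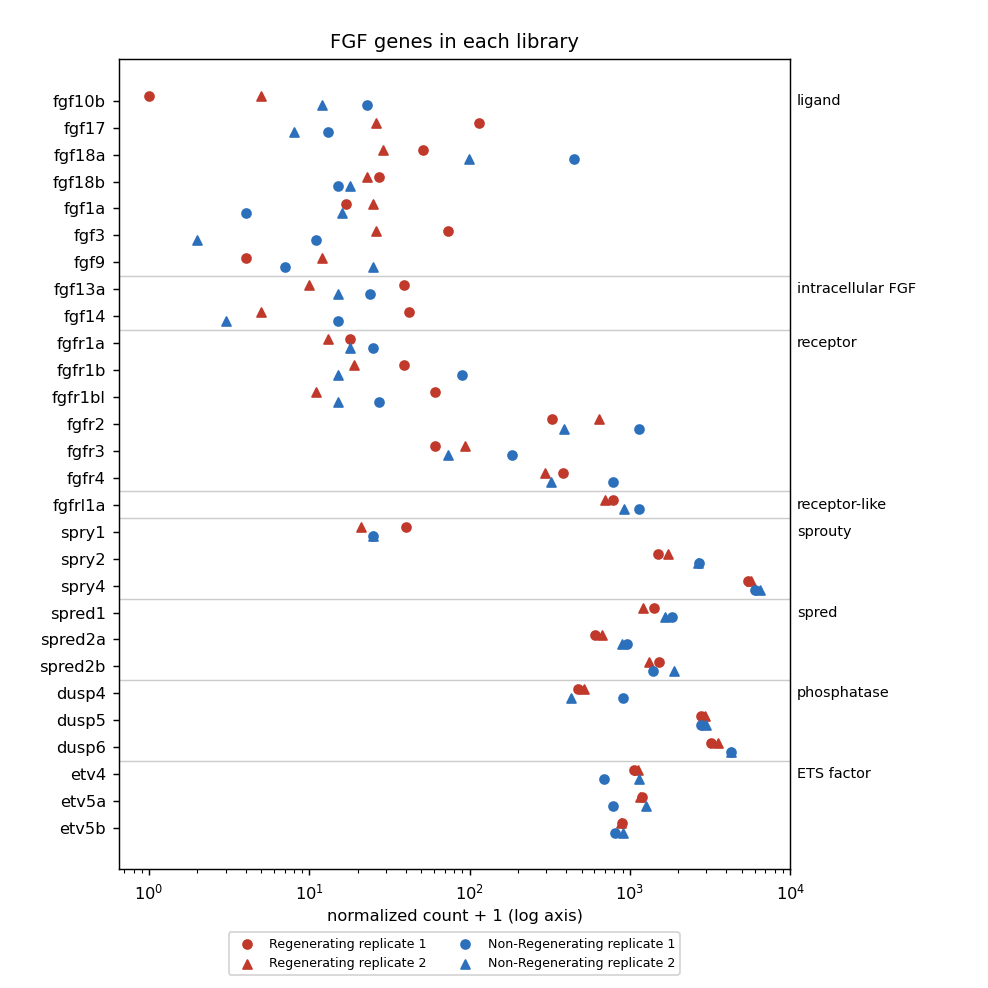
Normalized count + 1 (log axis) of each tested FGF gene in each library, grouped by role, with Regenerating in red above Non-Regenerating in blue and replicates 1 and 2 as circles and triangles. The spry2 points separate by group, at 1485 and 1720 in Regenerating, against 2682 and 2667 in Non-Regenerating, while the fgfr2 points overlap.

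Among the brakes of the pathway, spry2 had the smallest p of any member. Sprouty proteins are membrane-associated inhibitors of receptor tyrosine kinase signalling, and their genes are switched on by that signalling. The gene spry2 (ENSDARG00000078308, chromosome 1, 5273481 to 5277583, danRer11) read 1485 and 1720 in Regenerating, against 2682 and 2667 in Non-Regenerating. Both Regenerating libraries lay below both Non-Regenerating libraries, and the Non-Regenerating pair differed by 15 normalized counts. Its log2 fold change was -0.74 (SE 0.133, 95% interval -1.08 to -0.40), a level 1.67-fold lower, with an unadjusted p of 0.00243 and an adjusted p of 0.176. It ranked 231 of 16928 genes by p. With any 1 library left out its log2 fold change lay between -0.85 and -0.64. Among the 34 members, spry2 alone kept an unadjusted p under 0.05 in all 12 alternatives, with adjusted p between 0.0508 and 0.707.

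The relative spry4 (ENSDARG00000068732, chromosome 21, 44684577 to 44691068) read 5456 and 5721 in Regenerating, against 6013 and 6464 in Non-Regenerating. These values also did not overlap, but the difference was small, with a log2 fold change of -0.16 (SE 0.095, 95% interval -0.40 to 0.08, adjusted p = 0.577). The third Sprouty gene, spry1, read 39 and 20 in Regenerating, against 24 and 24 in Non-Regenerating. Its groups overlapped, and at these counts the 95% interval of its log2 fold change, -1.21 to 1.64, left a wide range.

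Spred proteins are relatives of Sprouty that bring neurofibromin, an inactivator of RAS, to the membrane. All 3 Spred genes read lower on average in Regenerating, and 2 of these were lower at an unadjusted p under 0.05, as 5.19% of all tested genes were. The gene spred2a read 602 and 666 in Regenerating, against 951 and 887 in Non-Regenerating, with a log2 fold change of -0.54 (SE 0.164, unadjusted p = 0.022, adjusted p = 0.302). The gene spred1 read 1412 and 1211 in Regenerating, against 1831 and 1652 in Non-Regenerating, with a log2 fold change of -0.41 (SE 0.151, unadjusted p = 0.0413, adjusted p = 0.368). Neither gene's groups overlapped. The paralog of spred2a, spred2b, read 1516 and 1318 in Regenerating, against 1382 and 1886 in Non-Regenerating, and its groups overlapped (log2 fold change -0.19, 95% interval -0.70 to 0.32). The difference between the paralogs was not tested. The span of spred1 overlaps angel1 on the opposite strand, and the sources used here do not say whether counting used strand, so some of its reads may belong to that gene.

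All 3 phosphatase genes had a log2 fold change below 0, and 1 of them, dusp6, was lower at an unadjusted p under 0.05, as 5.19% of all tested genes were. Differences between the 3 genes were not tested. The product of dusp6 removes phosphate from ERK in the cytoplasm, and this gene is widely used as a readout of FGF signalling. The gene dusp6 (ENSDARG00000070914, chromosome 25, 18326298 to 18330503) read 3210 and 3536 in Regenerating, against 4248 and 4280 in Non-Regenerating. The groups did not overlap, and the log2 fold change was -0.34 (SE 0.107, 95% interval -0.61 to -0.07, unadjusted p = 0.024, adjusted p = 0.311). The nuclear ERK phosphatase gene dusp5 read 2769 and 2925 in Regenerating, against 2781 and 2969 in Non-Regenerating. Its values interleaved, and the 95% interval of its log2 fold change, -0.30 to 0.27, was among the narrowest of the set. The third gene, dusp4, whose product is also nuclear, read 475 and 515 in Regenerating, against 898 and 429 in Non-Regenerating. Its log2 fold change of -0.33 (adjusted p = 0.797) became 0.20 without Non-Regenerating replicate 1.

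None of the 3 ETS factor genes had an unadjusted p under 0.05, where 12.8% of all tested genes did. The products of etv4, etv5a and etv5b carry the ERK signal to DNA. The gene etv4 read 1065 and 1128 in Regenerating, against 691 and 1140 in Non-Regenerating. The gene etv5a read 1186 and 1149 in Regenerating, against 785 and 1259 in Non-Regenerating, and etv5b read 894 and 875 in Regenerating, against 807 and 900 in Non-Regenerating. In each of the 3 genes the Regenerating pair lay inside the range of the Non-Regenerating pair, with replicate 1 the lower of that pair. Their log2 fold changes of 0.30, 0.23 and 0.05 became -0.06, -0.11 and -0.03 without Non-Regenerating replicate 1, and the adjusted p were 0.724, 0.784 and 0.937. Over the 9 Sprouty, Spred and phosphatase genes together, 8 had a log2 fold change below 0, as did 8432 of the 16928 tested genes. Of these 8, dusp4, dusp5 and spred2b did not keep that direction with each library left out in turn, reaching 0.20, 0.03 and 0.03. In 5 of the 9, or 55.6%, Regenerating lay below Non-Regenerating with no overlap, where 21.5% of all tested genes did. The general endothelial markers had a similar pattern, with 9 of 11 below 0 and 5 of 11, or 45.5%, lower with no overlap. The part of endothelial content in the values of these 9 genes was not tested. With the 3 ETS factor genes included, 8 of 12 were below 0 and 5 of 12, or 41.7%, lay lower with no overlap.

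**Figure D3:**
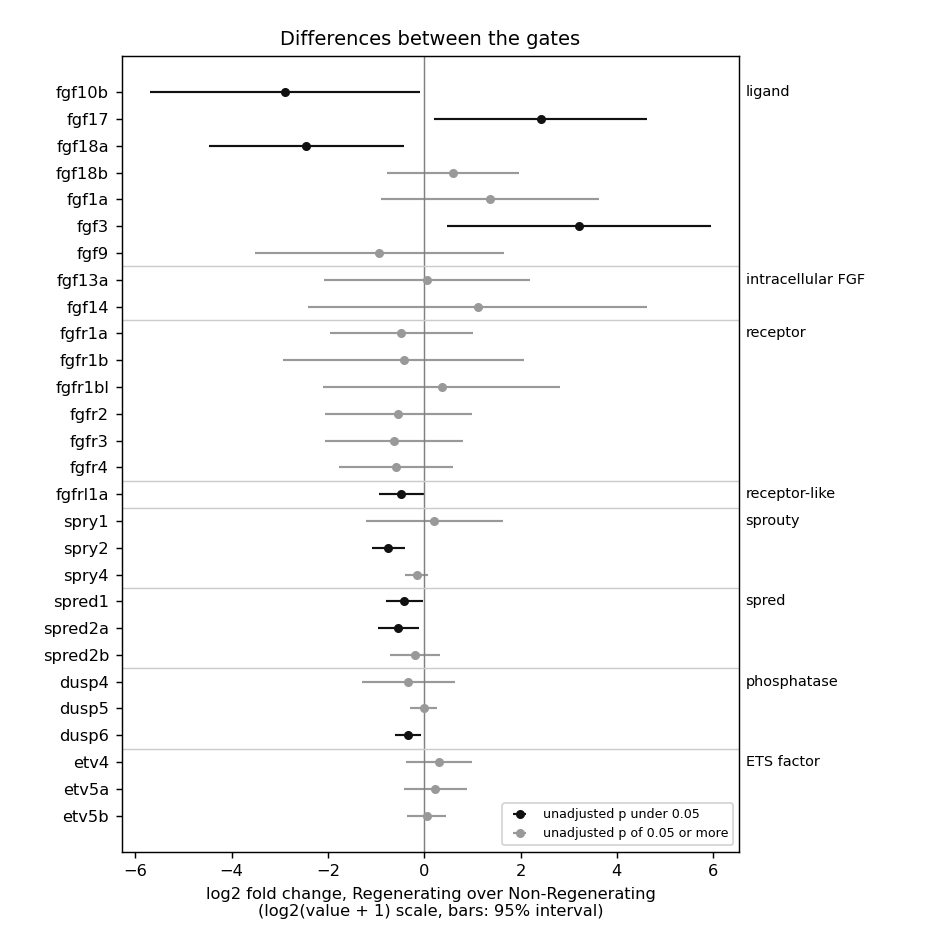
Log2 fold change of each tested FGF gene, Regenerating over Non-Regenerating, on the log2(value + 1) scale, with 95% intervals from limma; black marks an unadjusted p under 0.05 and grey the rest. The spry2 interval runs from -1.08 to -0.40 and lies below 0, while the intervals of the 6 tested receptor rows all span 0.

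Receptor transcripts varied widely between the Non-Regenerating libraries, by a median absolute log2 difference of 1.31 over the 6 tested rows, against 0.36 over all tested genes. Between the Regenerating libraries that median was 0.79, against 0.31. All tested genes were not matched to these rows for level. The gene fgfr2 (ENSDARG00000058115, chromosome 13, 46298560 to 46429433), whose transcripts are known in zebrafish from epicardium-derived cells of the injured heart, read 325 and 640 in Regenerating, against 1133 and 387 in Non-Regenerating. The gene fgfr4, known from the same cells, read 381 and 293 in Regenerating, against 784 and 322 in Non-Regenerating. The gene fgfr3 read 60 and 92 in Regenerating, against 184 and 72 in Non-Regenerating. In all 3 genes Non-Regenerating replicate 1 was the highest library, and Non-Regenerating replicate 2 lay within the range of the Regenerating pair.

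The fgfr1 rows had few reads. The gene fgfr1a read 17 and 12 in Regenerating, against 24 and 17 in Non-Regenerating, and fgfr1b read 38 and 18 in Regenerating, against 88 and 14 in Non-Regenerating. Of the 2 rows named fgfr1bl, ENSDARG00000104015 read 60 and 10 in Regenerating, against 26 and 14 in Non-Regenerating. The other, ENSDARG00000075027, stayed below the filter at 9 and 9 in Regenerating, against 4 and 0 in Non-Regenerating. These rows lie 720 bases apart on the same strand of chromosome 22, so the values of either as a separate gene are uncertain.

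None of the 6 tested receptor rows had groups free of overlap, where 43.2% of all tested genes did. None had an unadjusted p under 0.05, where 12.8% of all tested genes did, and the smallest adjusted p was 0.681. All 6 were higher in Non-Regenerating replicate 1 than in replicate 2, and 4 of them had a ratio of at least 2 on the value + 1 scale, a ratio that 9.69% of all tested genes reached. The log2 fold changes of fgfr2, fgfr3 and fgfr4 were -0.54, -0.63 and -0.59. Without Non-Regenerating replicate 1 they were 0.24, 0.05 and 0.05, and that of fgfr1b was 0.86 in place of -0.42. The 11 epicardial and fibroblast markers, with none at 0, summed to 25856 and 28174 in Regenerating, against 34581 and 31546 in Non-Regenerating, and went both ways. Both Regenerating libraries lay below both Non-Regenerating libraries in 5 of them (45.5%, against 21.5% of all tested genes) and above in 4 (36.4%, against 21.8%). Among the lower ones, the fibroblast receptor gene pdgfra read 137 and 136 in Regenerating, against 1049 and 452 in Non-Regenerating. Among the higher ones, the periostin gene postnb read 1569 and 1839 in Regenerating, against 1002 and 978 in Non-Regenerating. Both examples were chosen after their values were seen. Of the 11 epicardial and fibroblast markers, 1 had Non-Regenerating replicate 1 at least 2 times replicate 2 (9.09%, against 9.69% of all tested genes). That ratio was reached by 7 of 9 macrophage, 4 of 11 heart muscle, 3 of 8 mural and 3 of 8 endocardial markers. No endothelial or tested lymphoid marker reached it. Macrophage markers summed to 4932 and 5413 in Regenerating, against 3035 and 2336 in Non-Regenerating. The part of these lists in the receptor values was not tested.

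The receptor-like gene fgfrl1a encodes a surface protein that binds FGFs but lacks the kinase. It read 778 and 693 in Regenerating, against 1132 and 917 in Non-Regenerating. The groups did not overlap, and the log2 fold change was -0.47 (SE 0.184, unadjusted p = 0.0499, adjusted p = 0.39). Its paralog fgfrl1b stayed below the filter, at 3 and 7 in Regenerating, against 15 and 8 in Non-Regenerating.

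**Figure D4:**
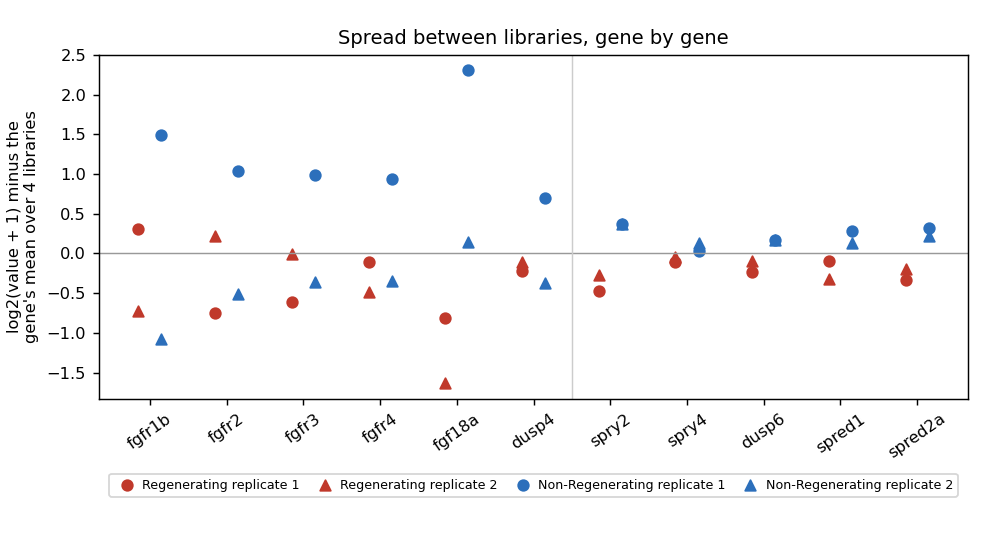
Each gene's log2(value + 1) in each library, minus its mean over the 4 libraries, for receptor genes, fgf18a and dusp4 (left of the line) and for 5 brake genes (right of the line). On the left Non-Regenerating replicate 1 stands above the other 3 libraries in every gene shown, while on the right the Regenerating pair lies below the Non-Regenerating pair; the genes were chosen for display after their values were seen.

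Most ligand genes had few reads, and those with the largest differences went in opposite directions. The gene fgf3 (ENSDARG00000101540, chromosome 7, 54605640 to 54609108) read 72 and 25 in Regenerating, against 10 and 1 in Non-Regenerating. These correspond to an estimated 103 reads in Regenerating (exact Poisson 95% limits 84.1 to 124.9) and 11 reads in Non-Regenerating (5.5 to 19.7), limits that cover counting error only. The log2 fold change was 3.22 (SE 1.07, unadjusted p = 0.0297, adjusted p = 0.33), between 1.99 and 4.45 with any 1 library left out. The gene fgf4 lies 7951 bases downstream of fgf3 on the same strand. It stayed below the filter, at 5 and 7 in Regenerating, against 9 and 23 in Non-Regenerating, so the neighbours were ordered oppositely, though at few reads.

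The gene fgf17, of the FGF8 subfamily, read 113 and 25 in Regenerating, against 12 and 7 in Non-Regenerating. The groups did not overlap, but the Regenerating pair differed 4.39-fold on the value + 1 scale. The log2 fold change of 2.42 (SE 0.861, adjusted p = 0.357) became 1.35 when Regenerating replicate 1 was left out and 3.48 when replicate 2 was. In both fgf3 and fgf17 Regenerating replicate 1 was the highest library. That library also had the highest sum of heart muscle markers, and all 11 of these were higher there than in Regenerating replicate 2. It had the highest sums of mural (vessel wall) and lymphoid markers too, at 17636 and 166, while the other lists peaked in other libraries. The part of these cell types in the ligand values was not tested.

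The gene fgf18a (ENSDARG00000088048, chromosome 14, 2487672 to 2536342), also of the FGF8 subfamily, read 50 and 28 in Regenerating, against 444 and 98 in Non-Regenerating. Its estimated reads were 82 in Regenerating (exact Poisson 95% limits 65.2 to 101.8) and 537 in Non-Regenerating (492.5 to 584.4), for counting error only. Its log2 fold change was -2.45 (SE 0.793, unadjusted p = 0.0267, adjusted p = 0.321), a level 5.46-fold lower. Leaving out Non-Regenerating replicate 1 gave -1.36, and leaving out Non-Regenerating replicate 2 gave -3.53. Its paralog fgf18b read 26 and 22 in Regenerating, against 14 and 17 in Non-Regenerating, with the groups in the other order (log2 fold change 0.60, 95% interval -0.76 to 1.96). The paralogs' difference was not tested. The endocardial neuregulin gene nrg2a, chosen after its values were seen, had its libraries in the same order as fgf18a, at 52 and 23 in Regenerating, against 788 and 250 in Non-Regenerating. The endocardial markers gata4, gata5, bmp6 and nrg1 had this order too, and notch1b, nfatc1 and klf2a did not. The order was not particular to the endocardial list, and its share over all tested genes was not counted. In the epicardial and fibroblast list, pdgfra, aldh1a2 and col1a1a had it as well, and the rest of that list did not. For aldh1a2 the values were 1477 and 932 in Regenerating, against 4552 and 2799 in Non-Regenerating. Which cells made the transcripts of either list here was not tested. Of the 8 endocardial markers, 6 were lower in both Regenerating libraries than in either Non-Regenerating library (75%, against 21.5% of all tested genes), and their part in the fgf18a values was not tested.

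The gene fgf10b, of the FGF7 subfamily, read 0 and 4 in Regenerating, against 22 and 11 in Non-Regenerating. It passed the filter only through the Non-Regenerating libraries, so its direction was fixed by entry and its log2 fold change of -2.89 (adjusted p = 0.379) is no support. It also overlaps CR854981.1 on the opposite strand. Its paralog fgf10a read 2 and 7 in Regenerating, against 5 and 1 in Non-Regenerating. Of the remaining tested ligand genes, fgf1a read 16 and 24 in Regenerating, against 3 and 15 in Non-Regenerating, without overlap but with an adjusted p of 0.607. The gene fgf9 read 3 and 11 in Regenerating, against 6 and 24 in Non-Regenerating, and its groups overlapped.

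The other 8 of the 15 ligand genes did not reach the filter. The gene fgf7, whose product acts on epithelial cells, was the highest of these in any library, at 27 and 3 in Regenerating, against 1 and 1 in Non-Regenerating. The genes fgf1b, fgf6b, fgf10a, fgf16 and fgf20a had highest values between 5 and 10. The gene fgf8a, a ligand of heart and brain development, was at 0 in both Regenerating libraries and in Non-Regenerating replicate 1, and at 5 in Non-Regenerating replicate 2. These 8 genes entered no test, and at their read numbers small differences would not be detectable.

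The intracellular FGF homologous factors share the FGF fold but are not secreted, and they bind voltage-gated sodium channels of nerve and muscle. The gene fgf14 read 41 and 4 in Regenerating, against 14 and 2 in Non-Regenerating, and fgf13a read 38 and 9 in Regenerating, against 23 and 14 in Non-Regenerating. Within each group replicate 1 was the higher library in both genes. The heart muscle sums had the same order within each group, at 32648 and 9815 in Regenerating, against 5097 and 2761 in Non-Regenerating. So had the mural, lymphoid and endocardial sums, while the endothelial, macrophage, and epicardial and fibroblast sums had not. Taken singly, all 11 heart muscle markers were higher in replicate 1 of Regenerating, but only 8 of 11 in replicate 1 of Non-Regenerating. In both fgf14 and fgf13a, Non-Regenerating replicate 1 was above Regenerating replicate 2, and in the heart muscle sums it was below. The part of these cell types was not tested. The third factor gene, fgf12b, read 7 and 8 in Regenerating, against 0 and 5 in Non-Regenerating.

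The 6 rows that share only letters with the family are given for completeness, and are too few to stand for unrelated genes. The gene fgfr1op is listed as cep43, a centrosome gene, in the gene name table, and fgfr1op2 is named after a fusion with a receptor. The spryd genes encode proteins with a SPRY domain, unrelated to Sprouty. None had an unadjusted p under 0.05, where 12.8% of all tested genes did. In 2 of them, fgfr1op2 and spryd7a, both Regenerating libraries lay below both Non-Regenerating libraries (33.3%, against 21.5% of all tested genes). The gene fgfr1op2 read 562 and 706 in Regenerating, against 763 and 920 in Non-Regenerating, the largest of the 6 differences (log2 fold change -0.41, adjusted p = 0.502). The other 5 had log2 fold changes between -0.08 and 0.28.

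Signalling genes of the route from FGF receptors through RAS to ERK and beyond were taken from a list of 65 names. The list also holds genes downstream of ERK, such as egr1 and fosab, other dusp phosphatase genes and genes of the PI3K and AKT branch. Of its names, 60 were found and tested. Of these, 3 were higher and 3 lower at an unadjusted p under 0.05, 10% of the list, against 12.8% of all tested genes. That count of 6 was 4 or 0 without the first or the second Regenerating library, and 2 or 6 without the first or the second Non-Regenerating library. The median log2 fold change was -0.02 and none was called. The gene map2k1, which encodes the kinase that activates ERK, read 854 and 683 in Regenerating, against 1527 and 1175 in Non-Regenerating (log2 fold change -0.81, SE 0.211, adjusted p = 0.241). The neurofibromin gene nf1b read 52 and 61 in Regenerating, against 136 and 112 in Non-Regenerating (log2 fold change -1.12, adjusted p = 0.302). The scaffold gene ksr1a read 21 and 66 in Regenerating, against 5 and 3 in Non-Regenerating, and passed the filter only through the Regenerating libraries. Its direction was therefore fixed by entry, and the 3 higher genes counted above include it.

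Co-receptors and heparan sulfate genes, which shape how FGFs reach their receptors, came from a list of 48 names, of which 37 were found and 30 tested. Of these, 4 were higher and 4 lower at an unadjusted p under 0.05, 26.7% of the list, against 12.8% of all tested genes, and the median log2 fold change was -0.25. That count of 8 includes sulf2a, which passed the filter only through the Regenerating libraries. The count was 4 or 2 without the first or the second Regenerating library, and 8 or 12 without the first or the second Non-Regenerating library. None was called. The sulfatase gene sulf1, whose product removes sulfate groups from heparan sulfate outside the cell, read 1398 and 1577 in Regenerating, against 694 and 748 in Non-Regenerating. It was 2.06-fold higher, with a log2 fold change of 1.04 (SE 0.155, unadjusted p = 0.00104, adjusted p = 0.164), and lay between 0.96 and 1.13 with any 1 library left out. The related gene sulf2a read 45 and 23 in Regenerating, against 0 and 2 in Non-Regenerating, so its direction was fixed by entry. The glypican gene gpc5a, for a heparan sulfate carrier of the cell surface, read 17 and 13 in Regenerating, against 222 and 68 in Non-Regenerating (log2 fold change -2.97, adjusted p = 0.206). Without Non-Regenerating replicate 1 its log2 fold change was -2.12, and without replicate 2 it was -3.81.

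Several further genes of that list were chosen after their values were seen. The sulfotransferase gene ndst2b, for an enzyme of early heparan sulfate modification, read 135 and 113 in Regenerating, against 297 and 254 in Non-Regenerating (log2 fold change -1.15, adjusted p = 0.212). The glypican gene gpc4 read 1660 and 1410 in Regenerating, against 3361 and 2293 in Non-Regenerating (log2 fold change -0.86, adjusted p = 0.24). The gene flrt3, for a membrane protein that binds FGF receptors, read 2552 and 3072 in Regenerating, against 1971 and 2238 in Non-Regenerating (log2 fold change 0.41, adjusted p = 0.363). The third sulfatase gene, sulf2b, read 6721 and 8365 in Regenerating, against 4127 and 5743 in Non-Regenerating (log2 fold change 0.62, adjusted p = 0.316). The sulfotransferase genes hs6st1a, hs6st1b and hs6st2 encode enzymes that add sulfate at the position the sulfatases act on. Their Regenerating libraries lay below their Non-Regenerating libraries, a pattern of 14 of the 30 tested genes of the list (46.7%, against 21.5% of all tested genes). The opposite order without overlap was seen in 4 (13.3%, against 21.8%). For hs6st1b the libraries read 203 and 204 in Regenerating, against 508 and 300 in Non-Regenerating. For hs6st1a they read 184 and 174 in Regenerating, against 224 and 352 in Non-Regenerating. For hs6st2 they read 512 and 497 in Regenerating, against 746 and 600 in Non-Regenerating. Their log2 fold changes were -0.94 for hs6st1b, -0.65 for hs6st1a and -0.41 for hs6st2, with adjusted p of 0.339, 0.478 and 0.482. The feedback inhibitor gene il17rd, also called sef, read 21 and 32 in Regenerating, against 95 and 48 in Non-Regenerating (log2 fold change -1.35, SE 0.541, unadjusted p = 0.0542, adjusted p = 0.404).

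**Figure D5:**
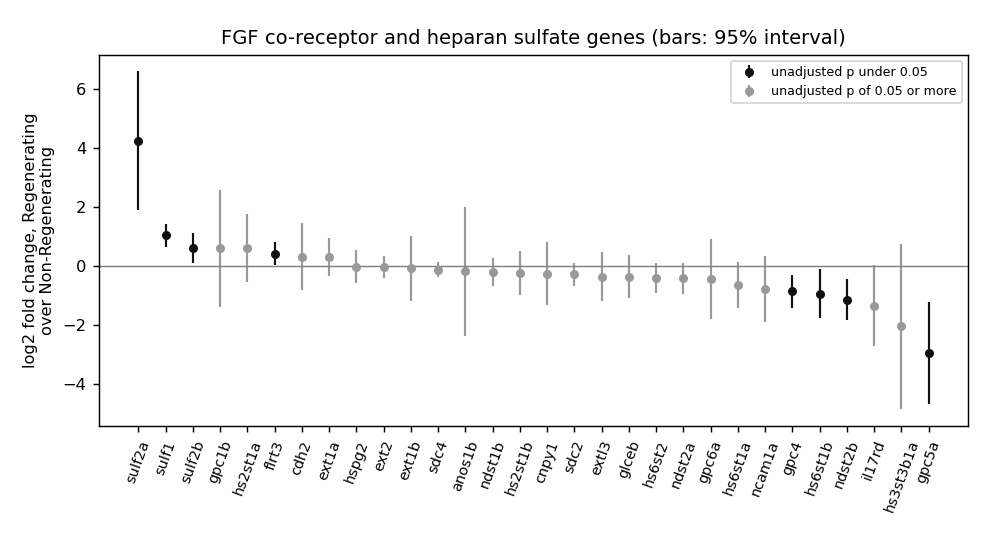
Log2 fold change of the 30 tested co-receptor and heparan sulfate genes, Regenerating over Non-Regenerating, in falling order with 95% intervals from limma; black marks an unadjusted p under 0.05. The sulf1 gene stands at 1.04 and gpc5a at the lower end with -2.97, while the direction of the topmost gene, sulf2a at 4.26, was fixed by its entry through the Regenerating libraries.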

How the data were processed

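RNA from sorted cells, about 5 ng per library, was amplified as full-length cDNA (SMART-Seq v4) and then fragmented, per the labels' protocols. The submitters' processing notes name the build danRer11 and, without roles, DESeq2 1.36.0, featureCounts 2.0.4, Picard 3.1.1, STAR 2.7.11a and Trimmomatic 0.39. The deposited values are counts that the authors normalized and then rounded, so they are whole numbers but not raw reads, and they are treated as a score. Reads per library were estimated from the steps at which whole numbers are skipped or doubled.

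A gene was tested where 2 or more of the 4 libraries read 10 or higher. The values, as log2(value + 1), entered limma 3.58.1 (R 4.3.3; moderated variances following a trend with the mean), with Benjamini-Hochberg adjustment over all 16928 genes. Fold changes are Regenerating over Non-Regenerating and understate those of low genes. The amplified reads carry no molecular identifiers, transcript lengths were not used, so levels of different genes are not compared, and no sequence is shown.

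The members, lists and rules were chosen with earlier results of these data known. Members are described with every library's value where they had an unadjusted p under 0.05, were a receptor, brake or ETS factor gene, or were a ligand or binding protein gene with non-overlapping groups and an absolute log2 fold change of at least 1; other members are given for completeness, and in each further list the 3 genes with the smallest p are named. Alternatives were other filters, pseudocounts and scalings, no trend, a replicate block and leaving out each library.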

Additional observations from a re-analysis of the deposited data

How the results depend on the processing

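In none of the 12 alternatives was a member called at an adjusted p under 0.05. The number of members at an unadjusted p under 0.05 was 5 with a filter of 50 and 3 without the variance trend, against 9 as reported, and 1 to 8 with a library left out. The members' median log2 fold change was -0.079 without the filter and -0.259 with a filter of 50, and -0.249 to -0.041 with a library left out. The number of all genes called was 0 without the trend and 0 with any 1 library left out, against 1 as reported. With the replicate block it was 357, with 0 members called, 9 members and 13 signalling genes at an unadjusted p under 0.05, and sulf1 (adjusted p = 0.0358) and sulf2b (adjusted p = 0.0386) called. The deviations of same-numbered libraries correlated at 0.339 across genes, which are not independent replicates, and the labels give these libraries only a number in common. With a library left out, the signalling list had 0 to 6 genes and the co-receptor list 2 to 12 genes at an unadjusted p under 0.05.

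The genes followed were the 34 tested members and some named genes of the 2 further lists, and are not the 45 rows of the set. Of these 45 genes followed, 28 kept their direction throughout. The 17 that did not were all tested members. Under quantile scaling the direction turned for spry1 (-0.08), fgf13a (-0.24), dusp5 (0.01) and spryd3 (0.01, the same as with equal totals). With a library left out, log2 fold changes crossed 0 in 17 genes, with these ranges: fgfr1b -1.71 to 0.86, fgfr1bl ENSDARG00000104015 -0.87 to 1.60, fgfr2 -1.31 to 0.24, fgfr3 -1.30 to 0.05, fgfr4 -1.23 to 0.05, dusp4 -0.86 to 0.20, dusp5 -0.06 to 0.03, spred2b -0.42 to 0.03, spry1 -0.25 to 0.68, etv4 -0.06 to 0.66, etv5a -0.11 to 0.57, etv5b -0.03 to 0.13, fgf13a -0.92 to 1.04, fgf14 -0.42 to 2.65, spryd3 -0.18 to 0.17, spryd4 -0.19 to 0.58 and spryd7b -0.24 to 0.39. The cause was not tested. For the 8 of 15 ligand genes below the filter, small differences would not be detectable at their read numbers.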
